A study of Homo sapiens with 6 samples.

Results

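The 7 genes described here encode receptors at the cell surface and the secreted or membrane-bound ligands that occupy them: CXCR4, CXCL12, ACKR3, KIT, KITLG, APELA and APLNR. They were chosen by name, as the rows of the deposited table whose Ensembl ID carries one of these symbols, and all 7 were found among 40396 gene IDs. The cells came from H1, 1 human embryonic stem cell line, and were collected on day 3 of differentiation to definitive endoderm (DE), the embryonic layer that gives rise to gut, liver and pancreas. Control samples (n = 3) received DMSO, the solvent. SAR samples (n = 3) received 0.5 µM saracatinib (SAR), known as an inhibitor of Src family kinases, for all 3 days. At this dose the study that made the data reported no effective inhibition of Src phosphorylation. It reported lower phosphorylation of focal adhesion kinase at some of its sites. Both groups were kept in 50 ng/mL activin A, the nodal-like signal used to make DE, and were given 2.5 µM CHIR99021, which activates the Wnt pathway, during the first 24 h and none for the next 2 days. The comparison asks how SAR altered the transcripts of these receptors and ligands in DE culture. Whether the samples of a group were separate cultures was not given in the sources used here, so p-values measure the spread between these samples, which may be technical. One line, 1 dose and 1 day were sequenced.

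CXCR4 is a G protein-coupled receptor for the chemokine CXCL12 and steers migrating cells, including endoderm in the gastrula. ACKR3 binds the same chemokine without the usual G protein signaling and removes it from the surroundings, which shapes the gradient that CXCR4 reads. KIT is a receptor tyrosine kinase whose ligand, stem cell factor, is encoded by KITLG and supports germ cells, melanocytes and blood progenitors. Antibodies to CXCR4 and KIT are widely used together to sort DE from human pluripotent cultures. APLNR is a G protein-coupled receptor with a pair of peptide ligands, apelin (APLN) and the embryonic peptide APELA, also called Elabela or Toddler, which is made by pluripotent cells and guides mesendoderm during gastrulation in fish.

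The bases just upstream of CXCR4, CXCL12 and KIT are shown because they cover both DE sorting markers, which moved in opposite directions, and the ligand of CXCR4. They were taken from the RefSeq promoter table (GRCh38.p14), which holds a window for 5 of the 7 genes, and run 5′ to 3′ on the strand of each gene up to the first base of an annotated exon. Capitals mark matches on either strand to the TATA box (TATAAA) or the GC box (GGGCGG, written CCGCCC where it lies on the other strand). The 234 bases of CXCR4 are chr2:136118166-136118399 on the minus strand, the 250 bases of CXCL12 are chr10:44385098-44385347 on the minus strand, and the 211 bases of KIT are chr4:54657707-54657917 on the plus strand. The CXCL12 window lies inside the gene as GENCODE 29 draws it, because that annotation has a longer transcript that starts further upstream.
CXCR4: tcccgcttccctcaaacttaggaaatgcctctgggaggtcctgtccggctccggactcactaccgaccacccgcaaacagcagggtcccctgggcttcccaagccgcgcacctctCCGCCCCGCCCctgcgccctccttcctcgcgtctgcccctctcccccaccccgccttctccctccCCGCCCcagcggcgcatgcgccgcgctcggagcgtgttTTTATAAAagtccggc
CXCL12: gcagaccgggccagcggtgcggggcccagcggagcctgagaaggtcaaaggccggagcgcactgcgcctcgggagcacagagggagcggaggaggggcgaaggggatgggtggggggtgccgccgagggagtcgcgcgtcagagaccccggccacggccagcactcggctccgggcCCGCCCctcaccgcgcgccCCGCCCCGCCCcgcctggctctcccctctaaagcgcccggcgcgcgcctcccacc
KIT: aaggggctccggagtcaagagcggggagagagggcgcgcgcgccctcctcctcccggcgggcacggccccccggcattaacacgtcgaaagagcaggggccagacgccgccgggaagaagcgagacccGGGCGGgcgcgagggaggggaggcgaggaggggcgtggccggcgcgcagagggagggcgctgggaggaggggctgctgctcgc
The TATA box was found in CXCR4, as 2 overlapping matches on opposite strands, and 10.5% of all 35116 windows cut to that length hold it. It was not in the CXCL12 or KIT window. The GC box occurred 3 times in CXCR4, 3 times in CXCL12 and 1 time in KIT, with 40.5%, 42.6% and 37.5% of all windows of the same length holding at least 1, and in CXCR4 and CXCL12 a pair of the matches share 1 base. GC content was 68.4% for CXCR4, 78.0% for CXCL12 and 76.3% for KIT, beside medians of 57.7%, 58.0% and 57.3% over all windows of those lengths. GTAAACA for FOX factors was not in these 3 windows, and neither were AGATAA for GATA factors, ACAAT for SOX factors or GGAATG for TEAD factors (present in 2.51% to 2.98%, 7.90% to 9.17%, 22.1% to 24.6% and 10.2% to 11.9% of all windows of these lengths).

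Depth ran from 18877964 to 24419937 reads per control library, and the SAR libraries had 16681280 to 18389543. Values are FPKM, fragments scaled by gene length and library size, so levels can be compared between genes. Control replicate 1 had 33169 genes above 0 and the other libraries between 29506 and 30109. Read counts of libraries of the same group differed by 4.38 to 13.9 times the variance of counting alone (chi-square per degree of freedom). All 17 listed DE markers were measured above the filter, at summed levels of 4072 to 5200 FPKM in control and 2165 to 2235 FPKM with SAR. Such a sum is set mostly by its most abundant genes and does not describe the list as a whole. In the test given below 7 of the 17 were higher with SAR and 6 lower, with a median log2 fold change of -0.14. SOX17 rose from 31.6 ± 1.84 to 67.5 ± 18.3 FPKM and FOXA2 from 23.6 ± 1.38 to 64.0 ± 3.66 FPKM (SD, n = 3 each), whereas EOMES fell from 83.1 ± 11.1 to 32.1 ± 2.82 FPKM. Tests covered the 16371 genes that averaged 0.5 FPKM or more, of which 23.7% were higher and 9.55% lower with SAR at an adjusted p-value under 0.05 in limma, 33.3% in all. The median log2 fold change of these genes was 0.12. With libraries rescaled by median ratios that median was 0.00, and 2259 genes were higher and 2538 lower, in place of 3885 and 1563. Among the 7 genes each that passed as deposited also passed after rescaling, in the same direction.

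With SAR, CXCL12, KIT, APELA and APLNR rose, CXCR4 and ACKR3 fell, and KITLG did not pass the test. Thus 4 of 7 genes were higher, against 23.7% of all tested genes, and 2 of 7 lower, against 9.55%. After rescaling the shares of all tested genes were 13.8% higher and 15.5% lower. The 7 genes were chosen with earlier results of these data known, so these counts do not test the 7 as a set. Adding a log2 fold change above 1, CXCL12 and APELA were upregulated, as were 3.41% of tested genes, and none of the 7 was downregulated, as were 1.58%. The control and SAR libraries did not overlap for any of the 7, and they did not overlap for 50.7% of tested genes either. Because bulk RNA was measured, fewer cells of a type and less RNA per cell cannot be told apart.

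**Figure D1:**
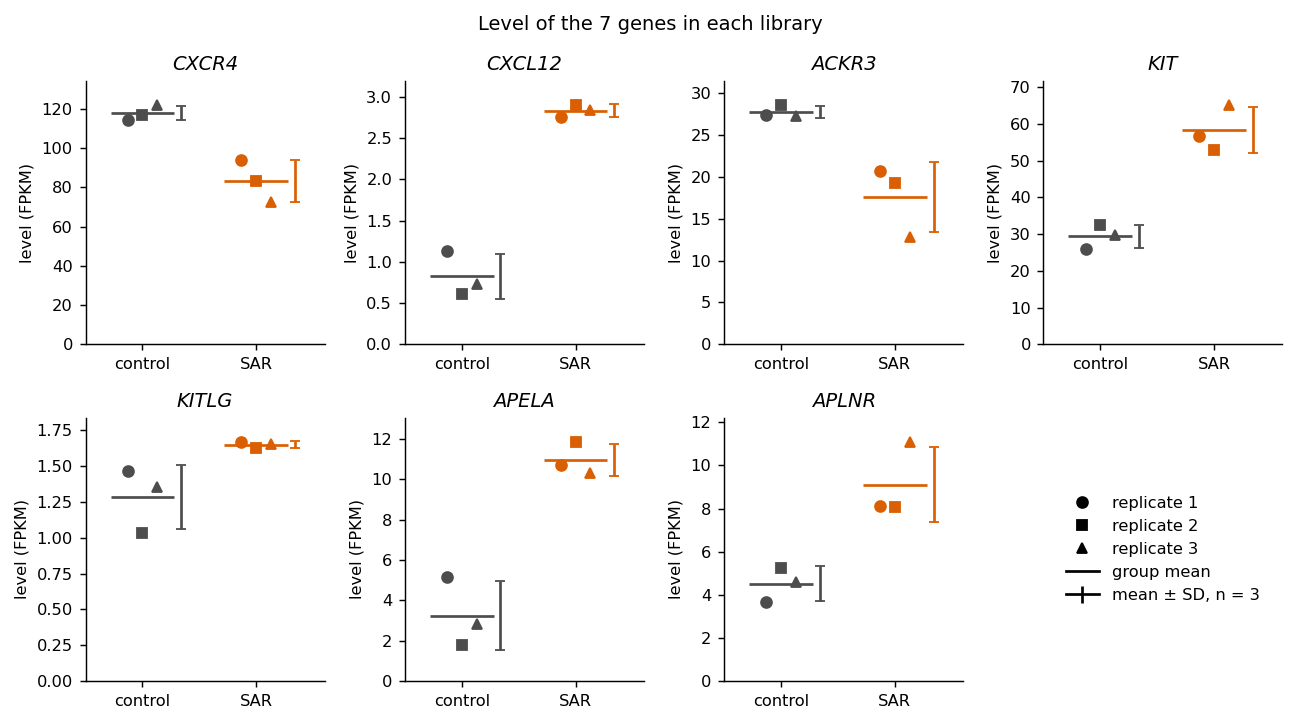
FPKM of each of the 7 genes in each library (vertical axes, linear, from 0) for the control and SAR groups, with a symbol for each replicate, a line for the group mean and whiskers for the mean ± SD (n = 3). CXCR4 and ACKR3 sit lower in all 3 SAR libraries, and the other 5 genes sit higher, KITLG by the smallest margin.

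CXCR4 (ENSG00000121966, GRCh38 chr2:136114349-136118165, minus strand, 3 merged exon blocks) was the most abundant of the 7 in both groups and fell with SAR. Its level was 114.6, 117.1 and 122.0 FPKM in control replicates 1, 2 and 3 and 94.0, 83.0 and 72.5 FPKM in SAR replicates 1, 2 and 3. Every SAR library lay below every control library, and SAR replicate 3 was the lowest. The means were 118 ± 3.78 and 83.2 ± 10.8 FPKM (SD, n = 3 each), a change of -29.4%. The log2 fold change was -0.51 (SE 0.0951, 95% confidence interval -0.74 to -0.29, limma adjusted p = 0.00872), and -0.63 after rescaling (adjusted p = 0.00498). Between 2942 and 6312 reads stood behind each value. The control level exceeded that of 98.2% of tested genes and the SAR level that of 97.3%, so CXCR4 stayed among the most abundant transcripts of the culture.

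CXCL12 (ENSG00000107562, GRCh38 chr10:44370165-44386493, minus strand, 6 merged exon blocks), the ligand shared by CXCR4 and ACKR3, rose from the lowest level of the 7. It measured 1.13, 0.606 and 0.732 FPKM in the control libraries and 2.75, 2.90 and 2.85 FPKM in the SAR libraries. The SAR libraries were close together and all stood above control replicate 1, the highest control. The mean went from 0.822 ± 0.271 to 2.83 ± 0.0763 FPKM, 3.45 times the control mean. The log2 fold change was 1.71 (SE 0.202, 95% confidence interval 1.23 to 2.19, adjusted p = 0.00193). It was larger in size than that of 98.0% of tested genes. The values rest on 84 to 150 reads per control library and 279 to 318 per SAR library. With a pseudocount of 1 FPKM in place of 0.1 the log2 fold change was 1.08 (the pseudocount pulls low genes toward 0).

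ACKR3 (ENSG00000144476, GRCh38 chr2:236567787-236582358, plus strand, 3 merged exon blocks), the scavenging receptor, fell along with CXCR4. Control libraries held 27.5, 28.6 and 27.4 FPKM and SAR libraries 20.7, 19.3 and 12.9 FPKM. The controls were nearly equal, and SAR replicate 3 stood well below the other SAR libraries, as it did less markedly for CXCR4. The means were 27.8 ± 0.700 and 17.6 ± 4.18 FPKM, with a log2 fold change of -0.68 (SE 0.168, 95% confidence interval -1.08 to -0.29, adjusted p = 0.0220). Without SAR replicate 3 it was -0.47 (adjusted p = 0.00424). The call was lost without control replicate 1, 2 or 3 (adjusted p = 0.0517, 0.0650 and 0.0624) and without the filter on low values (adjusted p = 0.0551), with a log2 fold change between -0.70 and -0.66 in each. Each value rests on 490 to 1447 reads.

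KIT (ENSG00000157404, GRCh38 chr4:54657918-54740715, plus strand, 21 merged exon blocks), the other sorting marker of DE, moved opposite to CXCR4. Its level was 26.0, 32.4 and 29.9 FPKM in the control libraries and 56.8, 52.9 and 65.2 FPKM in the SAR libraries. The lowest SAR library was far above the highest control. The means were 29.4 ± 3.20 and 58.3 ± 6.28 FPKM, and the log2 fold change was 0.98 (SE 0.106, 95% confidence interval 0.73 to 1.23, adjusted p = 0.00148), just short of the fold threshold. Over the 15 alternatives it ran from 0.86 to 1.06 and was above 1 in 3. KIT was read 3137 to 6669 times per library.

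KITLG (ENSG00000049130, GRCh38 chr12:88492793-88580851, minus strand, 12 merged exon blocks), the ligand of KIT, was low and did not pass the test. It measured 1.46, 1.04 and 1.36 FPKM in the control libraries and 1.67, 1.63 and 1.66 FPKM in the SAR libraries. The SAR libraries lay just above control replicate 1, and control replicate 2 set most of the spread. The means were 1.29 ± 0.223 and 1.65 ± 0.0229 FPKM, with a log2 fold change of 0.35 (SE 0.142, 95% confidence interval 0.01 to 0.69, adjusted p = 0.0973). In voom on the recovered reads, 157 to 199 per library, it was 0.39 with an adjusted p of 0.0474, and after rescaling it was 0.24 with an adjusted p of 0.223. An antisense gene, AC024941.2, lies opposite 1.3% of the exon bases of KITLG, and whether strand was used in the counting was not given in the sources used here.

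APELA (ENSG00000248329, GRCh38 chr4:164877004-164898965, plus strand, 4 merged exon blocks) had the largest log2 fold change of the 7. Control libraries held 5.15, 1.77 and 2.81 FPKM and SAR libraries 10.7, 11.9 and 10.3 FPKM. The controls were widely spread and the SAR libraries were not. The means were 3.24 ± 1.73 and 11.0 ± 0.814 FPKM, 3.38 times the control mean. The log2 fold change was 1.85 (SE 0.335, 95% confidence interval 1.06 to 2.65, adjusted p = 0.00787). It was 2.24 without control replicate 1, the highest control, and 1.50 without control replicate 2, the lowest. Control values rest on 126 to 329 reads and SAR values on 521 to 587.

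APLNR (ENSG00000134817, GRCh38 chr11:57233577-57237314, minus strand, 1 merged exon block), the receptor of APELA, rose as well. It measured 3.64, 5.26 and 4.59 FPKM in control and 8.11, 8.08 and 11.1 FPKM with SAR. SAR replicate 3 was the highest and the other SAR libraries were nearly equal, all above the controls. The means were 4.50 ± 0.812 and 9.10 ± 1.74 FPKM, and the log2 fold change was 0.9998 (SE 0.170, 95% confidence interval 0.60 to 1.40, adjusted p = 0.00631), just under the fold threshold. It was above 1 in 6 of the 15 alternatives. APLN, which encodes the other ligand of this receptor, was near the floor, at 0.765, 0.305 and 0.608 FPKM in control and 0.409, 0.476 and 0.354 FPKM with SAR. With 21 to 54 reads per library it fell under the filter and was not tested, and its groups overlapped. Without the filter its log2 fold change was -0.30 with an adjusted p of 0.607, so no difference was detected.

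**Figure D2:**
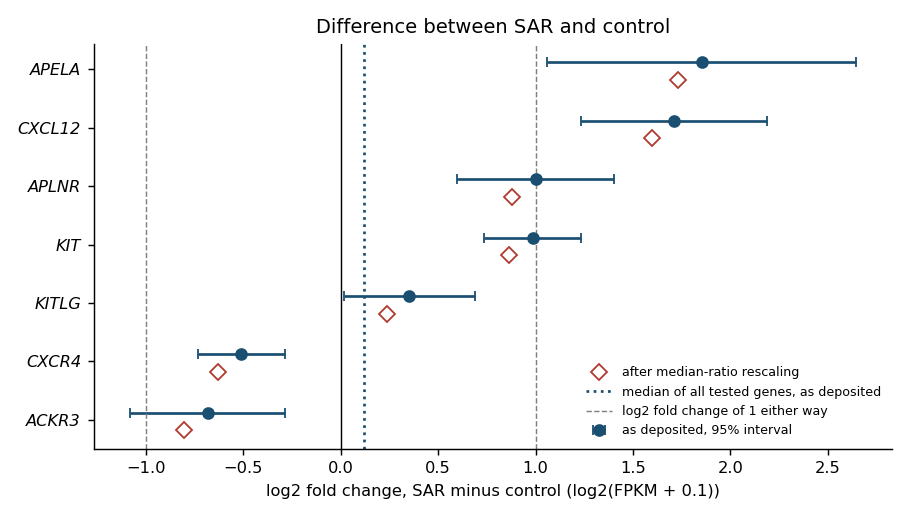
Log2 fold change, SAR minus control, of the 7 genes (horizontal axis, on the log2(FPKM + 0.1) scale), as deposited with 95% confidence intervals (circles) and after median-ratio rescaling (diamonds), with the median of all tested genes dotted and log2 fold changes of 1 and -1 dashed. Rescaling moves every gene to the left by about 0.12 and turns no direction, and the interval of KITLG reaches 0.01 as deposited.

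The order of the 7 by level changed between the groups. In control it was CXCR4, KIT, ACKR3, APLNR, APELA, KITLG and CXCL12, from highest to lowest, and the libraries of KIT and ACKR3, of APLNR and APELA, and of KITLG and CXCL12 overlapped. With SAR it was CXCR4, KIT, ACKR3, APELA, APLNR, CXCL12 and KITLG, and of these neighbours only APELA and APLNR overlapped. The mean of CXCR4 was 4.01 times that of KIT in control and 1.43 times with SAR. KIT and ACKR3 were alike in control, at a ratio of means of 1.06, and 3.31-fold apart with SAR.

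Ratios of a pair of genes within 1 library do not depend on the scaling between libraries. For the 5 ratios compared, an exact two-sided permutation test over 3 against 3 libraries cannot go below 0.1, so none could pass 0.05. It was run on log2 ratios of FPKM + 0.1, and adjusted over the 5 the exact p-values of 0.1, 0.2 and 0.3 become 0.167, 0.25 and 0.3. CXCL12 to CXCR4, ligand to receptor, was 0.00984, 0.00518 and 0.00600 in control and 0.0293, 0.0350 and 0.0393 with SAR. All SAR libraries were higher, by 4.66-fold (2.22 on the log2 scale, exact permutation p = 0.1). With a pseudocount of 1 FPKM the log2 difference was 1.59. CXCR4 to KIT was 4.40, 3.62 and 4.08 in control and 1.66, 1.57 and 1.11 with SAR, thus 2.82-fold lower with no overlap (log2 difference -1.49, exact permutation p = 0.1). The transcripts of the sorting-marker pair were least unequal in SAR replicate 3. Sorting reads surface protein, which RNA-seq does not measure.

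CXCR4 to ACKR3, signaling to scavenging receptor, was 4.17, 4.09 and 4.46 in control and 4.54, 4.29 and 5.63 with SAR. The groups overlapped (log2 difference 0.17, exact permutation p = 0.2). KITLG to KIT was 0.0563, 0.0320 and 0.0454 in control and 0.0294, 0.0307 and 0.0254 with SAR. SAR libraries were lower without overlap (log2 difference -0.63, exact permutation p = 0.1). APELA to APLNR was 1.41, 0.336 and 0.613 in control and 1.32, 1.47 and 0.928 with SAR. These groups overlapped through control replicate 1 (log2 difference 0.85, exact permutation p = 0.3). Without that library the log2 difference was 1.38 with an exact permutation p of 0.1, the smallest that 3 against 2 can reach. Without control replicate 2 it was 0.38 and without control replicate 3 it was 0.80 (exact permutation p = 0.6 each). With 1 SAR library left out it was 0.72 to 1.05 (exact permutation p = 0.3 to 0.5). The size of this difference thus depended on the library left out.

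**Figure D3:**
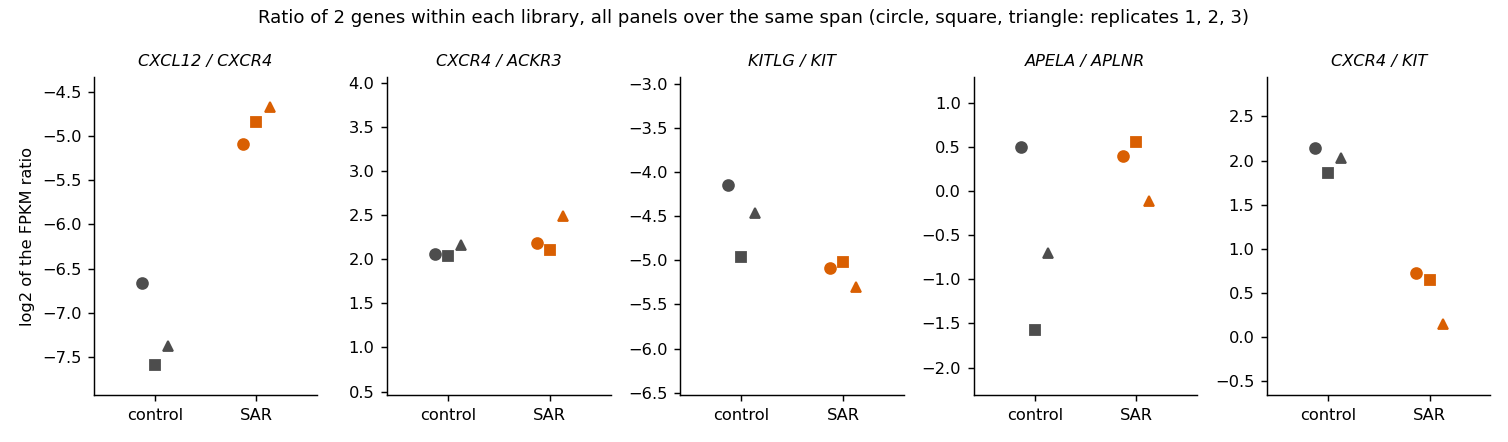
Log2 of the FPKM ratio of 2 genes within each library (vertical axes, all panels over the same span) for the 5 pairs, with points for control and SAR libraries. CXCL12 to CXCR4 is higher and CXCR4 to KIT and KITLG to KIT are lower in all SAR libraries, and the other pairs overlap.

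Control replicate 1 was the highest control for CXCL12, KITLG and APELA and the lowest for CXCR4, KIT and APLNR. SAR replicate 3 was the lowest SAR library for CXCR4 and ACKR3 and the highest for KIT and APLNR. The leave-out fits bear on these libraries. Without control replicate 1 the log2 fold change of CXCL12 was 1.94 and of APLNR 0.86, and without SAR replicate 3 that of CXCR4 was -0.42 and of KIT 0.90. Every direction was kept.

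**Figure D4:**
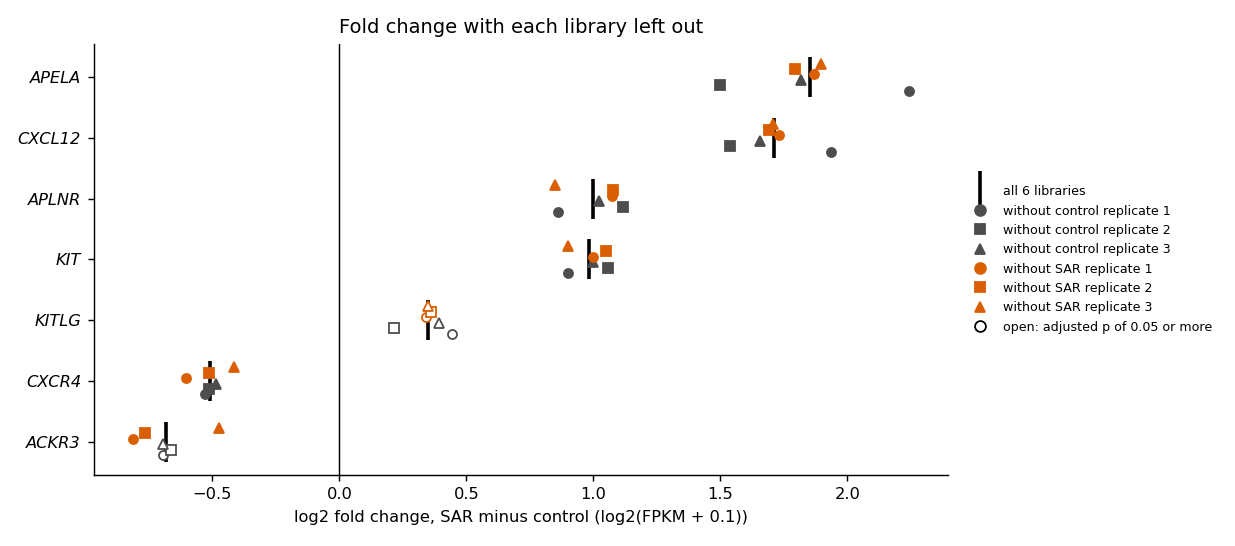
Log2 fold change, SAR minus control, of each gene with all 6 libraries (black bar) and with each library left out in turn (symbols by library, open where the adjusted p is 0.05 or more). No symbol crosses 0. ACKR3 is open without each of the 3 control libraries, and KITLG is open throughout.

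The genes around these receptors were taken from lists written for their roles. Of the 21 other chemokine receptors in the table only CCR10 was above the filter, and it did not pass, so CXCR4 and ACKR3 stood nearly alone in this receptor family. Of 32 other chemokine ligands 9 were tested, 3 rose and 1 fell, with a median log2 fold change of 0.69 beside 0.12 over all tested genes. After rescaling 2 rose and 1 fell. The shares over all tested genes were 23.7% higher and 9.55% lower as deposited, and 13.8% and 15.5% after rescaling. CCL2, a monocyte attractant, fell by 1.53 on the log2 scale, from 60.8 ± 5.08 to 21.0 ± 2.63 FPKM (adjusted p = 0.000402), the opposite of CXCL12. XCL1 rose by 0.91 (adjusted p = 0.00479), and has a near-identical paralog that could share its reads. CCL26 rose by 0.79 (adjusted p = 0.00478). CXCL3, too low for the naming rule and named after its values were seen, was the other ligand that rose, and its call was lost after rescaling. Of 10 further ligands or cleaving enzymes of CXCR4 and ACKR3, 6 were tested, 1 rose and 0 fell, with a median of -0.05, and 1 rose and 1 fell after rescaling. The gene that rose was CD74, a receptor chain for MIF, at 3.77 ± 0.465 and 5.23 ± 0.193 FPKM (log2 fold change 0.47, adjusted p = 0.0137).

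Of the 29 genes of CXCR4 and ACKR3 signaling and trafficking, 26 were tested, 5 rose and 7 fell, with a median of 0.05. After rescaling 2 rose and 9 fell, and the median was -0.07. Over all tested genes the shares were 23.7% higher and 9.55% lower as deposited, and 13.8% and 15.5% after rescaling. PIK3R5, a regulatory subunit of the phosphoinositide 3-kinase that G proteins activate, fell by 1.73, from 21.9 ± 3.79 to 6.52 ± 0.966 FPKM (adjusted p = 0.000784). ARRB1, an arrestin that uncouples and internalizes receptors, fell by 0.93 (adjusted p = 0.00231), and GNG2, a G protein subunit, fell by 0.81 (adjusted p = 0.00328). GRK5, a kinase that phosphorylates active receptors, rose by 1.22 from 0.930 ± 0.0527 FPKM (adjusted p = 0.00221), and RGS2, which shortens G protein signals, rose by 1.13 (adjusted p = 0.00114). RAC2 rose by 0.31 (adjusted p = 0.0346), but did not pass after rescaling (0.19, adjusted p = 0.141).

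Of the 30 genes of KIT signaling, shedding and inhibition 29 were tested, 4 rose and 7 fell, with a median of -0.03, and 3 rose and 11 fell after rescaling, beside the same shares of all tested genes (23.7% higher and 9.55% lower, then 13.8% and 15.5%). FYN, a Src family kinase, rose by 0.59 (adjusted p = 0.00237), CBLB, a ubiquitin ligase, by 0.51 (adjusted p = 0.00444) and SPRED1, an inhibitor of the Ras pathway, by 0.46 (adjusted p = 0.00212). SH2B3, an adaptor that restrains KIT, fell by 0.58 (adjusted p = 0.00954), GRB10 by 0.48 (adjusted p = 0.00401) and FER, a tyrosine kinase, by 0.46 (adjusted p = 0.0283, but 0.0515 to 0.0962 without the filter on low values, with the replicate block, or without control replicate 2 or 3 or SAR replicate 1 or 3). Of 11 other class III receptor kinases and their ligands 7 were tested, 2 rose and 0 fell, with a median of 0.24. They were PDGFA, at 1.31 ± 0.400 and 2.70 ± 0.137 FPKM (adjusted p = 0.00965), and IL34, at 2.11 ± 0.157 and 3.24 ± 0.377 FPKM (adjusted p = 0.00853), both ligands. Of 17 genes of apelin receptor signaling 14 were tested, 2 rose and 4 fell, with a median of -0.07, and 1 rose and 5 fell after rescaling. It shares ARRB1 and GRK5 with the CXCR4 list. ARRB2 rose by 0.31 (adjusted p = 0.0143), but its adjusted p was 0.0693 after rescaling. MME, a peptidase that cleaves apelin, fell by 0.85 (adjusted p = 0.00461) and GNAQ, a G protein subunit, by 0.47 (adjusted p = 0.00324).

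**Figure D5:**
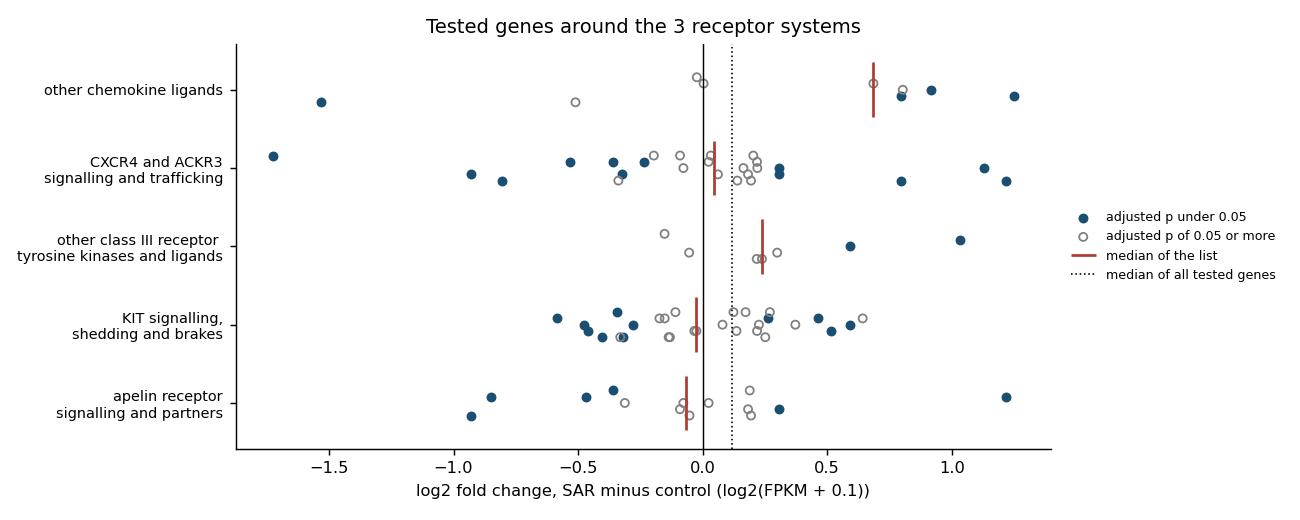
Log2 fold change, SAR minus control, of the tested genes of 5 lists around the receptors (horizontal axis), filled where the adjusted p is under 0.05, with the median of each list in red and that of all tested genes, 0.12, dotted. Genes lie on both sides of 0 in every list, and the other chemokine ligands have the highest median, 0.69.

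KIT, CXCR4 and APLNR are also made by other cells that such a culture could hold, so markers of those cells were measured beside them. Over all tested genes 23.7% were higher and 9.55% lower as deposited, and 13.8% and 15.5% after rescaling. Lists given below without counts after rescaling had the same counts there. Of 19 mesoderm markers 10 were tested, 3 rose and 1 fell, with a median of 0.20, and their summed level was 30.3 to 32.4 FPKM in control and 38.4 to 44.4 FPKM with SAR. TBXT, a mesendoderm transcription factor, rose by 1.69 (adjusted p = 0.000574), TBX3 by 1.42 (adjusted p = 0.00724) and TBX6 by 0.82 (adjusted p = 0.00207), whereas KDR, a receptor of mesodermal and endothelial progenitors, fell by 0.22 (adjusted p = 0.0177). Of 17 blood and endothelial markers 3 were tested and 2 rose, LMO2 and VWF, with a median of 0.78 over these 3. The sums were 10.8 to 12.0 FPKM in control and 13.5 to 18.5 FPKM with SAR. LMO2 was too low for the naming rule, and PECAM1, CDH5, CD34, TAL1, RUNX1 and ETV2 were among the markers under the filter. Of 12 primordial germ cell markers 7 were tested and 2 rose, ALPL and PDPN (1 rose and 1 fell after rescaling), with a median of 0.34 and sums of 71.3 to 81.9 and 89.6 to 91.8 FPKM, while NANOS3, DPPA3, DDX4 and DAZL were under the filter. Of 18 pluripotency markers 17 were tested, 5 rose and 1 fell (3 and 2 after rescaling), with a median of 0.20 and sums of 1167 to 1353 and 1423 to 1460 FPKM. FGF4 rose by 1.36 (adjusted p = 0.000335), SOX2 by 0.88 (adjusted p = 0.0153) and SALL4 by 0.48 (adjusted p = 0.00263), and NANOG fell by 1.30 (adjusted p = 0.000672). Of 11 yolk sac and liver-type markers 2 were tested and 1 rose, with a median of 0.38 and sums of 35.4 to 41.8 and 37.5 to 65.2 FPKM, and of 12 neural markers 6 were tested, 2 rose and 1 fell, with a median of 0.40 and sums of 135 to 145 and 129 to 144 FPKM. None of the marker genes was at 0 in all libraries. The part of these cells in the rise of KIT, APELA and APLNR or the fall of CXCR4 was not tested.

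The genes whose profile over the 6 libraries was nearest to each of the 7 were found by the root mean square difference of centred log2 values, among 12657 genes that carry a symbol and average 1 FPKM or more. All 6 libraries share the group contrast, so nearness covers the fold change as well as the spread. For CXCR4 they were RFK, a riboflavin kinase, at 0.0321 and NQO1, a quinone reductase, at 0.0490. For KIT they were VEGFA, a vascular growth factor, at 0.0452 and OLFML2A at 0.0669. For APLNR they were KIT at 0.0942 and VEGFA at 0.101. KIT and APLNR had nearly equal log2 fold changes (0.98 and 0.9998), which this measure covers, and APLNR was not among the 2 genes nearest to KIT. ACKR3 was nearest to HIGD1A (0.0616) and H2BC26 (0.0624) and KITLG to NAP1L2 (0.0307) and HEBP1 (0.0311). CXCL12 had IRX2 and ATP6V1G3 (0.122 each), and APELA had MAP2 (0.162) and the pseudogene ECEL1P1 (0.172), farther away than the neighbours of the other 5.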

How the data were processed

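RNA-seq of 3 control and 3 SAR samples was analysed, grouped by the sample titles. The authors deposited FPKM for 40396 Ensembl gene IDs in 6 columns, without pooling, from paired-end libraries of oligo(dT)-selected mRNA. The submitters' processing notes name HISAT2, featureCounts, Subread, DESeq2 and GRCh38.p13; their versions and roles, the annotation release and the strand setting are not given in the sources used here. Of the IDs, 30235 had a symbol, and positions are those of GENCODE 29, which holds 39023.

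Since FPKM are not counts, limma 3.58.1 in R 4.3.3 (lmFit, eBayes with an intensity trend) was run on log2(FPKM + 0.1), which understates changes of low genes, over the 16371 genes averaging at least 0.5 FPKM, with Benjamini-Hochberg adjustment. "Rose" and "fell" mean an adjusted p under 0.05, and "upregulated" and "downregulated" also a log2 fold change above 1 or under -1. Ratios were compared by exact permutation of the libraries. The fit was checked on simulated data that had large changes in few genes and no shift between libraries. The check does not cover small changes or a shift such as the one that rescaling removes here.

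Reads were recovered from FPKM, gene length and library total (whole within 0.02; 100.0% of IDs). The GENCODE exon union gave whole reads for 60.0% of its genes, and a smallest whole length was used for the others. They give depth and counting error only, and a voom test added after seeing the data, which called 4502 genes higher and 1823 lower.

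The 7 genes and the lists were chosen with earlier results of these data known. Named from each list were at most 3 genes per direction that passed, with the largest change and a mean of at least 1 FPKM, and for each of the 7 the 2 nearest profiles. Alternatives were other pseudocounts, filters and scalings, no intensity trend, a replicate block and each library left out. Python 3.11.15 with pandas 2.3.3, numpy 2.4.6, scipy 1.17.1 and matplotlib 3.10.9 was used.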

Additional observations from a re-analysis of the deposited data

How the results depend on the processing

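No fold change or ratio of the 7 genes changed sign under the alternatives run. CXCR4, CXCL12, KIT, APELA and APLNR passed under all 15 alternatives, with log2 fold changes of -0.63 to -0.42, 1.08 to 1.94, 0.86 to 1.06, 1.50 to 2.24 and 0.85 to 1.12. ACKR3 was -0.68 (adjusted p = 0.0551) without the filter on low values, and -0.81 to -0.47 with 1 library left out, losing its call without any control library. KITLG was 0.39 and passed only in voom on recovered reads (adjusted p = 0.0474). Over all genes, median-ratio rescaling gave 2259 higher and 2538 lower, with 403 upregulated and 362 downregulated. Quantile normalization gave 2429 higher and 2289 lower, with 340 upregulated and 409 downregulated. Thus lower genes outnumbered higher ones under the first only, and downregulated outnumbered upregulated under the second only. As deposited, higher and upregulated genes were the more numerous. A pseudocount of 1 FPKM gave 169 upregulated and 141 downregulated, and a minimum mean of 1 FPKM 369 upregulated. With 1 library left out there were 2129 to 3751 genes higher and 833 to 1824 lower, and the counts fell by over 1.5 times without control replicate 2 (2419 and 1005), control replicate 3 (2129 and 833) or SAR replicate 2 (2366 and 1031). The cause of these shifts was not tested. Of the other genes said to have risen or fallen, ALPL, ARRB2, CXCL3, FER, KDR, RAC2, SOX2 and VWF lost their call under at least 1 alternative. The replicate numbers share only a number: same-numbered libraries correlated at 0.0729, 0.00286 and 0.0247 in their deviations from the group means. The replicate block gave 3400 genes higher and 1448 lower, and changed no call of the 7. The lowest read numbers in a library were 84 for CXCL12, 126 for APELA and 157 for KITLG, where counting error is largest among the 7.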

Other observations

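The listed DE markers did not move as 1 group in the SAR libraries that held more KIT and less CXCR4. Of the 17 listed markers 7 rose and 6 fell, with a median log2 fold change of -0.14, and 6 rose and 8 fell after rescaling. Over all tested genes 23.7% were higher and 9.55% lower as deposited, and 13.8% and 15.5% after rescaling. FOXA1 rose by 2.54, FOXA2 by 1.44 and SOX17 by 1.06, and GSC fell by 1.48, EOMES by 1.36 and MIXL1 by 1.35. SOX17 was 32.1, 29.6 and 33.1 FPKM in control and 85.3, 68.5 and 48.7 FPKM with SAR, and MIXL1 was 45.4, 45.3 and 43.3 FPKM in control and 21.8, 18.3 and 13.3 FPKM with SAR. SAR replicate 3 was the lowest SAR library for both, as for CXCR4 and ACKR3, and the highest for KIT and APLNR.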
